A study of Mus musculus with 6 samples.

Results

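A dividing cell condenses its chromosomes, builds a spindle from tubulin and pulls the chromosome copies apart, and the RNA of the proteins that do this work accumulates mainly in G2 phase and mitosis. The 45 genes described here were taken from lists of G2 and mitosis genes by symbol, out of 32227 genes counted. By role they fall into 9 groups. Cyclins and Cdk1 form the kinase that starts mitosis (Ccna2, Ccnb1, Ccnb2, Cdk1, Cks1b, Cks2). Regulators of mitotic entry and exit are Plk1, Aurka, Cdc20, Ube2c, Cdca3. The spindle checkpoint, which delays separation until every chromosome is attached, is represented by Bub1, Bub1b, Mad2l1, Ttk, and the chromosomal passenger complex, which corrects wrong attachments, by Aurkb, Birc5, Cdca8. Centromere and kinetochore genes, whose products link chromosome and microtubule, are Cenpa, Cenpe, Cenpf, Ndc80, Nuf2, Spc24, Spc25. Spindle motors and microtubule binders are Kif11, Kif4, Kif20a, Kif23, Tpx2, Nusap1, Prc1, and the genes of cytokinesis, the final cut between daughter cells, are Racgap1, Ect2, Anln. Genes of chromosome structure (Top2a, Smc2, Smc4, Hmgb2, Mki67) and of the microtubule itself (Tubb4b, Tubb5, Tuba1b, Tuba1c, Stmn1) complete the list.

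In the thymus, immature precursors divide in bursts between rearrangements of their antigen receptor genes, whereas mature thymocytes that have passed selection and naive T cells of the spleen rest. T cells that meet antigen, as in a tumor, enter the cycle again, and melanoma cells divide without such a signal. Tubulins, Stmn1, Hmgb2, Cks1b, Smc2 and Smc4 are also used outside mitosis, so the other 36 genes are called core members and were summed on their own as well.

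The study profiled single cells of CD8+ T cell preparations from thymus, spleen and B16-OVA melanoma of C57BL/6 mice with the droplet kit PIPseq v3. Adult mice carried either the floxed Pdcd1 allele alone (Pdcd1fl/fl) or that allele with an E8I-Cre transgene (Pdcd1 cKO), which acts in CD8+ T cells after positive selection and not in their precursors or in the melanoma. Cells were purified with magnetic beads, those from tumors with CD8 (TIL) beads after removal of dead cells on day 12 after injection. There was 1 library for each label and tissue, 6 in all, from 1 mouse each in thymus and spleen and from pooled mice in tumors, so there are no replicates.

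Counts are unique molecular identifiers (UMIs), each standing for 1 captured RNA molecule, and CPM is the UMIs of a gene per 1000000 UMIs of the same cells. Pairs of values give the library labelled Pdcd1fl/fl first and the library labelled Pdcd1 cKO second, and a log2 ratio sets the second over the first, so that 1 means a doubling. Intervals after a value are 95% intervals (exact Poisson for levels and shares of UMIs, exact conditional binomial for ratios, Clopper-Pearson for shares of cells, Newcombe for their differences) and cover counting error only. After the filter on cells, the thymus libraries held 1067 and 2635 cells with 6389966 and 19143524 UMIs, with a median of 4361 and 5417 UMIs per cell. The spleen libraries held 1478 and 4928 cells with 2220981 and 8923997 UMIs, with medians of 1320.5 and 1615. The tumor libraries held 456 and 561 cells with 9380835 and 7924590 UMIs, with medians of 13809.5 and 9510.

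Pdcd1 itself went against the labels in whole libraries. It had 12 and 131 UMIs in thymus, 1.88 and 6.84 CPM. In spleen it had 1 and 104 UMIs, 0.450 and 11.7 CPM. In the tumor libraries it had 717 and 808 UMIs, 76.4 and 102 CPM. In each tissue the library labelled as the knockout thus held more Pdcd1 RNA than its counterpart. Within the T cells of the tumor libraries, separated from melanoma cells as described next, the order turned, with 702 and 801 UMIs or 183 and 152 CPM, since T cells held 40.9% and 66.4% of all UMIs. Pdcd1 therefore does not settle the labels, and every direction given here rests on the labels as deposited. The 7 markers of effector T cells summed higher under the label Pdcd1 cKO in thymus (1218 and 1551 CPM), spleen (6185 and 11172) and tumor T cells (3374 and 7044). The thymus sum did not keep this direction in every part of the libraries, as given below. The bearing of these markers on the labels was not tested. Which exons the deletion removes is not given in the sources used, so whether the counted tags lie within it is not known. The 2 spleen libraries shared 2 cell barcodes and no other pair shared any, and no doublets were removed. Cd8a or Cd8b1, the genes of the CD8 coreceptor, had a UMI in 55.2% and 66.5% of thymus cells, 58.4% and 78.8% of spleen cells and 75.4% and 91.3% of tumor cells.

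The tumor libraries were mixtures and were divided by clusters and lineage markers. T cells numbered 287 and 469, melanoma cells 142 and 58, and macrophages or monocytes 27 and 34. A marker rule applied cell by cell gave the same class to 756 of 756 clustered T cells and 199 of 200 clustered melanoma cells, but only to 52 of 61 macrophages or monocytes, of which it called 7 T cells and 2 melanoma cells. Pmel, a pigment cell gene, had 4694 and 5629.7 CPM in melanoma cells. In T cells it still had 66.5 and 53.6 CPM. RNA of the tumor was therefore present at a low level under T cell barcodes, and its part in the T cell values of shared genes was not tested.

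Mitosis genes took the largest share of RNA in the thymus library labelled Pdcd1fl/fl and the smallest in the spleen libraries. The 45 members summed to 1.04% (1.04 to 1.05) and 0.622% (0.619 to 0.626) of all UMIs in thymus. In spleen they summed to 0.147% (0.142 to 0.152) and 0.170% (0.167 to 0.173). Tumor T cells lay below thymus under the first label and slightly above it under the second, at 0.588% (0.580 to 0.596) and 0.669% (0.662 to 0.676). Melanoma cells held 0.345% (0.340 to 0.350) and 0.340% (0.333 to 0.348), less than the T cells beside them. Core members alone gave the same order, with 0.349% and 0.193% in thymus and 0.0390% and 0.0416% in spleen. Their shares were 0.170% and 0.195% in tumor T cells and 0.115% and 0.106% in melanoma cells. By gene, 40 of the 45 members had their highest CPM in the thymus library labelled Pdcd1fl/fl, beside 22.8% of 12822 genes with at least 100 UMIs. The exceptions were Cenpa, Tuba1b, Tuba1c and Tubb4b, highest in tumor T cells labelled Pdcd1 cKO, and Racgap1, highest in the spleen library labelled Pdcd1 cKO.

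**Figure D1:**
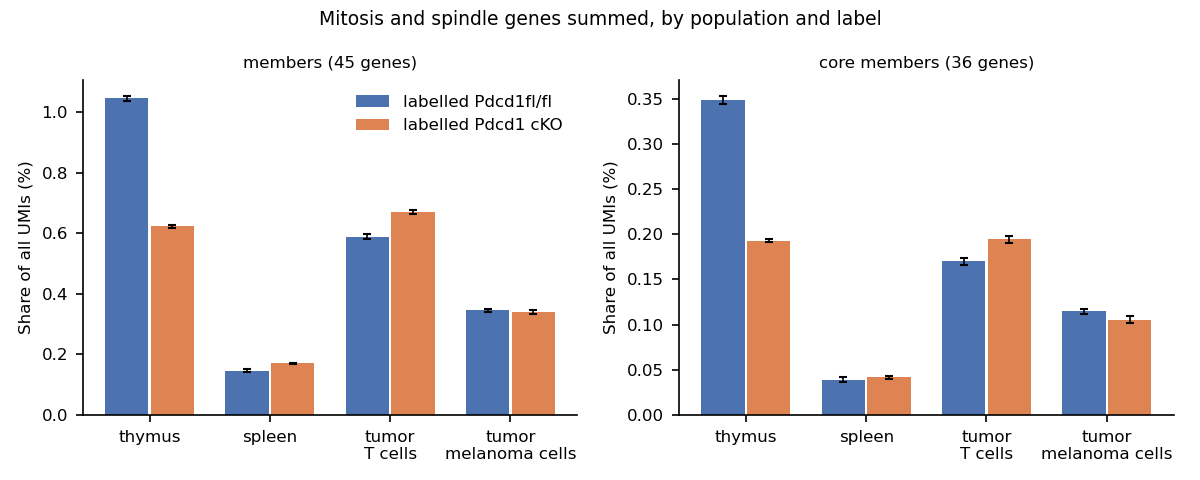
Share of all UMIs (vertical axis, percent) taken by the 45 mitosis and spindle genes (left) and by the 36 core members (right) in thymus, spleen, tumor T cells and tumor melanoma cells, with 1 bar per library label and exact Poisson 95% intervals. The thymus library labelled Pdcd1fl/fl stands highest in both panels and the spleen bars stand lowest.

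Set against spleen with the same label, the summed share in thymus was higher by a log2 ratio of 2.83 (2.78 to 2.88) for Pdcd1fl/fl and 1.87 (1.85 to 1.90) for Pdcd1 cKO. All 45 members had at least 100 UMIs in the pair of libraries, the minimum used for every ratio that is counted. In the spleen libraries alone only 8 and 16 members reached it. Most thus passed through thymus, where they were high, and their ratios rest on few spleen UMIs. Under the label Pdcd1fl/fl, 41 of the 45 were at least 2-fold higher in thymus, where 28.4% of all genes with that many UMIs were. Under Pdcd1 cKO it was 39 of 45, against 14.7% of all genes. The median member ratio was 4.08 and 3.08, beside 0.43 and 0.11 for all genes. The role with the widest gap was the passenger complex under Pdcd1fl/fl, at 5.01 (4.55 to 5.51), and mitotic entry and exit under Pdcd1 cKO, at 3.77 (3.57 to 3.98). Cytokinesis had the narrowest gap under both, with 0.77 (0.51 to 1.04) and -0.22 (-0.35 to -0.09).

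Tumor T cells also exceeded spleen, by 2.00 (1.95 to 2.06) and 1.98 (1.95 to 2.00) on the log2 scale. Of the 25 members with enough UMIs under the label Pdcd1fl/fl (20 had fewer), 21 were at least 2-fold higher (16.3% of all genes) and 3 at least 2-fold lower (37.9% of all genes). Under Pdcd1 cKO, 24 of 31 (14 had fewer UMIs) were higher (11.1%) and 2 lower (46.8%). In the spleen libraries alone only 8 and 16 members reached 100 UMIs, so many passed through tumor T cells, where they were high, and these counts do not stand for the whole list. At 20 UMIs, 31 of 41 (15.4% of all genes) and 34 of 45 (14%) were at least 2-fold higher, with medians of 2.48 and 2.12 in place of 2.85 and 2.46. At 100 UMIs the lower ones were Smc4 and Racgap1 under both labels and Cks2 under Pdcd1fl/fl. Smc4, a condensin subunit that packs chromosomes, had log2 ratios of -2.29 and -1.97. Racgap1 had -1.06 and -1.21, so these genes were more abundant in spleen, where most of the list was scarce.

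Between tumor T cells and thymus the outcome depended on the label. The summed ratio was -0.83 (-0.85 to -0.81) under Pdcd1fl/fl and 0.11 (0.09 to 0.12) under Pdcd1 cKO. Under Pdcd1fl/fl, 31 of 45 members were at least 2-fold lower in tumor T cells, beside 57.2% of all genes, and 2 were higher, beside 6.88%. Under Pdcd1 cKO, 17 were lower (50.7% of all genes) and 3 higher (9.15%). Most genes ran lower on this scale, and the median member ratios of -1.61 and -0.64 compare with -1.25 and -1.02 over all genes. The higher members were Cenpa and Tuba1c under both labels and Tubb4b under Pdcd1 cKO. Cenpa, the histone variant that marks centromeres, had ratios of 1.66 and 2.72. Tuba1c, an alpha tubulin, had 2.42 and 2.87. Spindle motors and microtubule binders were lowest as a role, at -2.08 (-2.24 to -1.93) and -1.32 (-1.44 to -1.20).

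Transcript length moved with this tissue comparison. Across members, the ratio of tumor T cells over thymus ran against the length of the canonical transcript (GENCODE vM39 on GRCm39), with Spearman correlations of -0.61 and -0.71 over 45 genes. Over all genes the correlations were -0.42 and -0.38. The 24 members under 3000 bases had medians of -1.02 and 0.17, and the 21 longer ones -2.36 and -1.92. Long and short members thus differed more from each other than thymus and tumor did in sum, genes are not independent replicates, and the part of length or capture in the tissue difference was not tested.

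Within the tumor libraries, melanoma cells held a smaller summed share than T cells, with log2 ratios of -0.77 (-0.80 to -0.74) and -0.98 (-1.01 to -0.94). Of 32 members with enough UMIs under Pdcd1fl/fl (13 had fewer), 8 were at least 2-fold lower in melanoma cells (7.72% of all genes) and 2 at least 2-fold higher (43.4%). Under Pdcd1 cKO, 11 of 28 (17 had fewer UMIs) were lower (13.1%) and 0 higher (29.4%). The higher pair was Prc1, which bundles microtubules at the cell's middle, and Spc25, a kinetochore subunit. Prc1 had 24 UMIs in T cells and 78 in melanoma cells, a ratio of 1.24 (0.56 to 1.96). Spc25 had 30 and 102, a ratio of 1.30 (0.70 to 1.94), and passed the minimum only through melanoma cells, where it was high. The counts of members changed with that minimum. At 20 UMIs all 45 members were counted under both labels. Under Pdcd1fl/fl, 7 were then at least 2-fold higher in melanoma cells (46.4% of all genes) and 9 lower (9.15%). Under Pdcd1 cKO, 2 were higher (33.7%) and 14 lower (13.8%). Chromosome structure was the role with the widest gap, at -2.02 (-2.10 to -1.93) and -2.47 (-2.59 to -2.35), with most of its UMIs from Hmgb2, and cytokinesis was higher in melanoma cells, at 0.86 (0.58 to 1.15) and 0.44 (0.10 to 0.78).

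The make-up of the summed share differed between cell classes too. Hmgb2, a chromatin protein that bends DNA, held 21.9% and 24.3% of member UMIs in thymus and 18.6% and 19.4% in tumor T cells. In melanoma cells it held 6.76% and 5.92%. There Tuba1b, an alpha tubulin, led with 22.5% and 23.5%. In spleen Tubb5 and Hmgb2 were joined by Smc4, with 11.8% and 9.59%, and by Cks2, with 9.57% and 8.83%. These are shares of UMIs, not levels per transcript length. Tuba1b and Tuba1c encode near-identical proteins, and whether reads were divided rightly between these genes was not tested. Tuba1b shares exon bases on its strand with the annotated Gm49450.

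Between labels, the members were lower in the thymus library labelled Pdcd1 cKO, with a summed log2 ratio of -0.75 (-0.76 to -0.73). All 45 ratios were below 0, and 11 of 45 members were at least 2-fold lower and 0 at least 2-fold higher, beside 4.06% and 3.63% of 10380 genes. Those 11 were Plk1, Spc24, Stmn1, Spc25, Birc5, Ccnb2, Ccnb1, Cdca8, Kif20a, Mad2l1 and Cks1b, from 7 of the 9 roles. The median member ratio was -0.78 and that of all genes -0.07. Members under 3000 bases had a median of -0.91 and longer ones -0.60, beside -0.21 and 0.005 for all genes of those lengths. Both lay under the median gene of their own length class, and the part of length was not tested. In spleen the summed ratio was 0.21 (0.16 to 0.27). That sign depended on the cell filter, since a stricter one, which left 81 and 865 cells, gave -0.45 (-0.56 to -0.35), and the filter used here had kept 21.3% and 99.3% of barcodes. Of the 17 members with at least 100 UMIs there, 1 was at least 2-fold higher (Spc24) and 0 lower, beside 5.07% and 0.676% of 7843 genes, and 28 members fell short of 100 UMIs. The member median was 0.31 in spleen, beside 0.17 for all genes. Spc24 passed that minimum only through the library labelled Pdcd1 cKO, and this picture changed with the minimum. At 20 UMIs, 39 members could be counted, 6 were at least 2-fold higher and 6 at least 2-fold lower, beside 9.18% and 2.83% of 12272 genes, and the member median of 0.10 lay under the 0.17 of all genes.

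Tumor T cells gave a summed ratio of 0.19 (0.16 to 0.21). None of the 32 members with enough UMIs (13 had fewer) was 2-fold apart, beside 4.18% of 4999 genes higher and 1.8% lower, and the medians were 0.17 for members and 0.08 for all genes. In melanoma cells, where the Cre transgene is absent, the summed ratio was -0.02 (-0.06 to 0.02) and that of core members -0.12 (-0.19 to -0.05), an interval below 0. The 27 and 34 macrophages or monocytes, also outside the CD8+ T cells, gave -0.64 (-0.78 to -0.50) for members and -0.74 (-1.05 to -0.43) for core members. In melanoma cells none of 28 members (17 had fewer UMIs) was 2-fold apart, beside 2.19% of 6309 genes higher and 2.81% lower. The medians there were -0.14 and -0.12. Only in thymus did the member median stand far from that of all genes.

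The size of these differences depends on the total they are scaled to. Leaving mitochondrial, cytosolic ribosomal protein and Malat1 counts out of the total moved every ratio by 0.18 in thymus, -0.14 in spleen and -0.13 in tumor T cells. Relative to the median gene, which moves with them, the summed member ratio was -0.68 in thymus. It was 0.04 in spleen, 0.10 in tumor T cells and 0.10 in melanoma cells. On that measure the thymus stood clear of the median gene, whereas spleen hardly differed from it. Ratios lay above the median gene for 0 of 45 members in thymus, 10 of 17 in spleen, 22 of 32 in tumor T cells and 13 of 28 in melanoma cells.

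**Figure D2:**
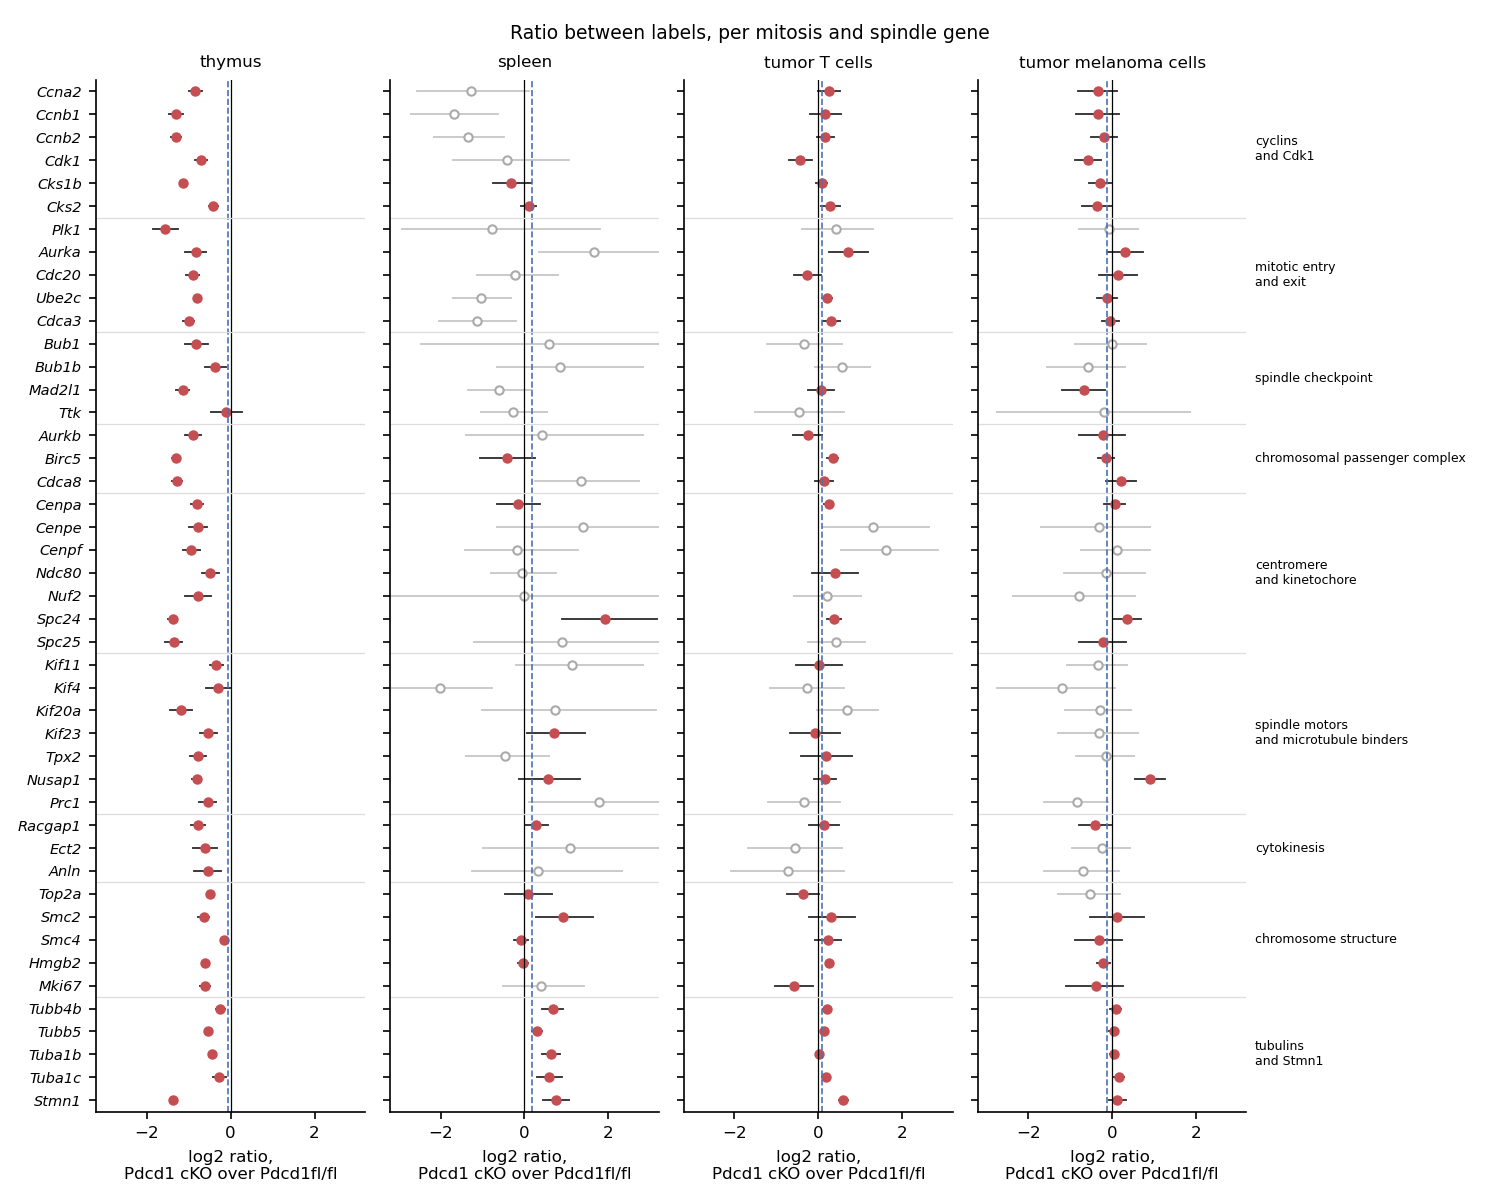
Log2 of the CPM under the label Pdcd1 cKO divided by that under Pdcd1fl/fl (horizontal axis), drawn for each of the 45 genes by role in thymus, spleen, tumor T cells and tumor melanoma cells, with exact conditional binomial 95% intervals as lines, clipped at the panel edge. Filled red points have at least 100 UMIs, open grey points fewer, and the dashed blue line is the median of all genes; all 45 points lie left of 0 in thymus.

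Cyclins and Cdk1 were lower in thymus as a group, at -0.93 (-0.98 to -0.89), with 6 of 6 members below 0. Cdk1, the kinase that drives entry into mitosis, had 102 CPM (654 UMIs) and 62.6 CPM (1199 UMIs) in thymus, a log2 ratio of -0.71 (-0.85 to -0.57). Its values in tumor T cells were 60.0 CPM (230 UMIs) and 44.7 CPM (235 UMIs), a ratio of -0.43 (-0.69 to -0.16), and in melanoma cells 75.9 CPM (401 UMIs) and 50.7 CPM (116 UMIs), a ratio of -0.58 (-0.89 to -0.28). Spleen held few Cdk1 molecules, 7 and 21 UMIs or 3.15 and 2.35 CPM. Cdk1 was thus lower in each of the populations with enough UMIs, although the summed members of tumor T cells were higher under the same label. Ccnb1, the cyclin that activates Cdk1, had 82.0 CPM (524 UMIs) and 33.3 CPM (638 UMIs) in thymus and a ratio of -1.30 (-1.47 to -1.13). Its levels in tumor T cells were 26.9 and 30.0 CPM (103 and 158 UMIs), and in melanoma cells 25.0 and 19.7 CPM (132 and 45 UMIs), with ratios of 0.16 (-0.21 to 0.53) and -0.34 (-0.86 to 0.16). In spleen Ccnb1 had only 16 and 20 UMIs (7.20 and 2.24 CPM), below the minimum for a ratio. The thymus difference of Ccnb1 was therefore larger than that of its kinase, and neither tumor class showed a Ccnb1 difference beyond counting error.

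Cks1b, a small subunit that docks the kinase onto its targets, had the most UMIs of this role. It had 376 CPM (2401 UMIs) and 171 CPM (3281 UMIs) in thymus, a ratio of -1.13 (-1.21 to -1.06). Spleen values were 25.2 CPM (56 UMIs) and 20.3 CPM (181 UMIs), a ratio of -0.31 (-0.75 to 0.15). Tumor T cells had 219.6 and 232 CPM and melanoma cells 83.6 and 68.7 CPM, with ratios of 0.08 (-0.05 to 0.21) and -0.28 (-0.56 to -0.02). Its paralog Cks2, picked out after its values were seen, behaved otherwise in spleen, where it had 140.5 CPM (312 UMIs) and 150.3 CPM (1341 UMIs), more UMIs than any other core member. In thymus Cks2 had 182 and 137 CPM, so its level was similar in thymus and spleen, while that of Cks1b differed widely. In melanoma cells the role as a whole was lower, at -0.35 (-0.49 to -0.21), with 0 of 6 members above 0.

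Regulators of mitotic entry and exit gave -0.89 (-0.95 to -0.83) in thymus and 0.21 (0.12 to 0.31) in tumor T cells. Ube2c, the ubiquitin-conjugating enzyme that feeds the anaphase-promoting complex, had the most UMIs. It had 282 CPM (1805 UMIs) and 163 CPM (3122 UMIs) in thymus, a ratio of -0.79 (-0.88 to -0.71). Tumor T cells had 241 and 277 CPM, a ratio of 0.20 (0.08 to 0.32), and melanoma cells 103 and 94.1 CPM, a ratio of -0.13 (-0.36 to 0.10). In spleen Ube2c had 28 and 55 UMIs (12.6 and 6.16 CPM). Plk1, a kinase needed at mitotic entry and for spindle assembly, had the lowest thymus ratio of all members. Its thymus values were 30.8 CPM (197 UMIs) and 10.5 CPM (201 UMIs), a ratio of -1.55 (-1.84 to -1.26). Elsewhere it was sparse, with 3 and 7 UMIs in spleen (1.35 and 0.784 CPM), 20 and 37 UMIs in tumor T cells (5.22 and 7.03 CPM) and 63 and 26 UMIs in melanoma cells (11.9 and 11.4 CPM).

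Aurka, the kinase that matures the spindle poles, had the highest ratio of the counted members in tumor T cells. It had 15.4 CPM (59 UMIs) and 25.1 CPM (132 UMIs) there, a ratio of 0.71 (0.25 to 1.17). In thymus Aurka went the other way, with 34.1 CPM (218 UMIs) and 19.2 CPM (367 UMIs) and a ratio of -0.83 (-1.08 to -0.58). Melanoma cells had 25.0 and 31.1 CPM (132 and 71 UMIs), a ratio of 0.31 (-0.12 to 0.74) whose interval holds 0, and spleen had 5 and 63 UMIs (2.25 and 7.06 CPM). Exons of Aurka overlap those of Cstf1 and Fam210b on the opposite strand.

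The spindle checkpoint was lower in thymus, at -0.79 (-0.90 to -0.68), and its members spread widely. Mad2l1, which holds back the activator of the anaphase-promoting complex, had 83.7 CPM (535 UMIs) and 37.9 CPM (725 UMIs) in thymus, a ratio of -1.14 (-1.31 to -0.98). Ttk, a kinase that recruits checkpoint proteins to unattached kinetochores, had the highest thymus ratio of all members, -0.10 (-0.47 to 0.27), from 13.3 CPM (85 UMIs) and 12.4 CPM (237 UMIs). Within this role, then, were members near the low end and at the high end of the thymus range. Mad2l1 of tumor T cells had 39.1 and 41.1 CPM, a ratio of 0.07 (-0.24 to 0.38). In melanoma cells it had the lowest ratio of the counted members, -0.67 (-1.19 to -0.18), from 30.6 CPM (162 UMIs) and 19.2 CPM (44 UMIs). Spleen had 22 and 58 UMIs of Mad2l1 (9.91 and 6.50 CPM) and 19 and 63 UMIs of Ttk (8.55 and 7.06 CPM). Ttk was near the limit of detection in the tumor, with 17 and 17 UMIs in T cells (4.43 and 3.23 CPM) and 8 and 3 UMIs in melanoma cells (1.51 and 1.31 CPM).

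The chromosomal passenger complex had the lowest role sum in thymus, -1.25 (-1.32 to -1.19). Birc5 (survivin), its subunit that docks onto the centromere, had 319 CPM (2039 UMIs) and 129 CPM (2463 UMIs) in thymus, a ratio of -1.31 (-1.40 to -1.23). In tumor T cells Birc5 was higher under the label Pdcd1 cKO, with 194 CPM (744 UMIs) and 247 CPM (1299 UMIs) and a ratio of 0.35 (0.22 to 0.48). Melanoma cells had 145 and 131 CPM, a ratio of -0.14 (-0.34 to 0.05). In spleen Birc5 had the lowest ratio of the counted members, -0.42 (-1.05 to 0.25), from 12.6 CPM (28 UMIs) and 9.41 CPM (84 UMIs), with an interval that holds 0. The same gene was thus lower in 1 tissue and higher in another, and the difference between those ratios was not tested.

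Centromere and kinetochore genes summed to -1.05 (-1.11 to -0.99) in thymus and 0.30 (0.22 to 0.39) in tumor T cells. Cenpa had the most UMIs, with 100.5 CPM (642 UMIs) and 57.2 CPM (1095 UMIs) in thymus, a ratio of -0.81 (-0.95 to -0.67). In tumor T cells it had 318 CPM (1220 UMIs) and 377 CPM (1982 UMIs), a ratio of 0.24 (0.14 to 0.35). Melanoma cells had 87.6 and 91.0 CPM and spleen 18.9 and 17.0 CPM, with ratios of 0.05 (-0.19 to 0.29) and -0.15 (-0.65 to 0.38). Its level was highest in tumor T cells under either label. Spc24, a subunit of the Ndc80 complex that grips the microtubule, had 228 CPM (1457 UMIs) and 87.7 CPM (1678 UMIs) in thymus and a ratio of -1.38 (-1.48 to -1.28). In spleen it had the highest ratio of the counted members, 1.92 (0.90 to 3.17), but from 8 and 122 UMIs (3.60 and 13.7 CPM). Tumor T cells had 119 and 155 CPM and melanoma cells 41.4 and 52.9 CPM, with ratios of 0.38 (0.21 to 0.55) and 0.35 (0.02 to 0.68). Spc24 was thereby lower in thymus and higher in the other populations under the label Pdcd1 cKO.

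Spindle motors and microtubule binders summed to -0.65 (-0.72 to -0.59) in thymus. Nusap1, which anchors microtubules near chromosomes, had the most UMIs, with 161 CPM (1031 UMIs) and 92.1 CPM (1764 UMIs) in thymus and a ratio of -0.81 (-0.92 to -0.70). In melanoma cells it had the highest ratio of the counted members, 0.90 (0.54 to 1.26), from 27.6 CPM (146 UMIs) and 51.6 CPM (118 UMIs). Tumor T cells had 50.3 and 56.3 CPM, a ratio of 0.16 (-0.11 to 0.43), and spleen 9.01 and 13.2 CPM (20 and 118 UMIs), a ratio of 0.55 (-0.14 to 1.32). Nusap1 exons overlap those of Oip5 on the opposite strand, and 14 of the 45 members overlap an annotated exon of that kind. Kif11 and Kif4, chosen after their values were seen, lay near the high end of this role in thymus. Kif11, the motor that pushes spindle poles apart, had a ratio of -0.34 (-0.50 to -0.18), and Kif4, a motor on chromosome arms, -0.29 (-0.58 to 0.00).

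Cytokinesis, with a thymus sum of -0.70 (-0.83 to -0.56), was carried by Racgap1, part of the complex that positions the cleavage furrow. Racgap1 had 66.2 CPM (423 UMIs) and 38.6 CPM (739 UMIs) in thymus, a ratio of -0.78 (-0.95 to -0.60). In spleen it had 62.1 CPM (138 UMIs) and 75.5 CPM (674 UMIs), a ratio of 0.28 (0.02 to 0.56). Tumor T cells had 29.7 and 32.7 CPM and melanoma cells 43.3 and 32.8 CPM, with ratios of 0.14 (-0.21 to 0.49) and -0.40 (-0.80 to -0.02). Racgap1 was the only member that peaked in spleen, where most others had their lowest level.

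Chromosome structure genes, at -0.53 (-0.55 to -0.50), differed least of the roles in thymus. Top2a, the enzyme that untangles DNA, had 343 CPM (2191 UMIs) and 244 CPM (4680 UMIs) there and a ratio of -0.49 (-0.56 to -0.41). Mki67, which coats mitotic chromosomes and serves as the common marker of proliferation, had 141 CPM (904 UMIs) and 93.1 CPM (1782 UMIs) and a ratio of -0.60 (-0.72 to -0.49). Hmgb2, with more UMIs than any other member, had 2287 CPM (14614 UMIs) and 1510.2 CPM (28911 UMIs) and a ratio of -0.60 (-0.63 to -0.57). These genes parted in tumor T cells. Mki67 had the lowest ratio of the counted members, -0.58 (-1.03 to -0.12), from 22.7 CPM (87 UMIs) and 15.2 CPM (80 UMIs). Top2a had 30.0 CPM (115 UMIs) and 23.4 CPM (123 UMIs), a ratio of -0.36 (-0.74 to 0.02). Hmgb2 had 1095 and 1301 CPM, a ratio of 0.25 (0.19 to 0.30). The marker most used for cycling cells therefore pointed the other way from the summed members in tumor T cells.

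Spleen values of these genes were low. Mki67 had 12 and 63 UMIs (5.40 and 7.06 CPM) and Top2a 34 and 144 UMIs (15.3 and 16.1 CPM), a Top2a ratio of 0.08 (-0.47 to 0.66). Hmgb2 had 308 and 300.2 CPM, a ratio of -0.04 (-0.16 to 0.09). Neither counted gene differed between the spleen labels beyond counting error. Melanoma cells had 14.9 and 11.4 CPM of Mki67 (79 and 26 UMIs) and 13.8 and 9.62 CPM of Top2a (73 and 22 UMIs), too few for a ratio of Top2a. The Mki67 ratio was -0.39 (-1.09 to 0.26). Hmgb2 there had 234 and 201 CPM, a ratio of -0.22 (-0.37 to -0.06). Smc4, named after its values were seen, was closer to level between labels in thymus, at -0.16 (-0.22 to -0.09).

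Tubulins and Stmn1 summed to -0.80 (-0.82 to -0.77) in thymus and, in the other direction, 0.48 (0.39 to 0.57) in spleen, where 5 of 5 members were above 0. Tubb5, the beta tubulin with the most UMIs of this role, had 1064 CPM (6800 UMIs) and 729 CPM (13952 UMIs) in thymus and a ratio of -0.55 (-0.59 to -0.50). In spleen it had 302 CPM (670 UMIs) and 373 CPM (3328 UMIs), a ratio of 0.31 (0.19 to 0.43). Tumor T cells had 788 and 869.7 CPM and melanoma cells 528 and 539 CPM, with ratios of 0.14 (0.08 to 0.21) and 0.03 (-0.07 to 0.13). Stmn1, a protein that takes microtubules apart, was singled out after its values were seen. Its thymus values were 1657 CPM (10588 UMIs) and 643 CPM (12309 UMIs), a ratio of -1.37 (-1.40 to -1.33). In spleen the ratio was 0.74 (0.43 to 1.06) and in tumor T cells 0.59 (0.48 to 0.70). The role summed to 562 and 783 CPM in spleen, and all members to 1468 and 1701. The summed spleen difference therefore lay almost wholly in this role, and core members alone gave 0.09 (-0.01 to 0.20), an interval that holds 0.

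A further 60 mitosis genes outside the list were counted in the same way. Their summed share was 0.204% and 0.136% in thymus, 0.0333% and 0.0431% in spleen, 0.0888% and 0.0987% in tumor T cells and 0.0834% and 0.0740% in melanoma cells. In thymus, 54 of 58 with enough UMIs were below 0, 9 of them at least 2-fold, beside 4.06% of all genes. The lowest was Cdkn3, a phosphatase of cyclin-dependent kinases, with 30.7 CPM (196 UMIs) and 11.8 CPM (226 UMIs) and a ratio of -1.38 (-1.66 to -1.09). The highest was Ska3, a kinetochore gene, with 11.9 CPM (76 UMIs) and 14.7 CPM (281 UMIs) and a ratio of 0.30 (-0.07 to 0.69). These genes thus leaned the same way as the members in thymus.

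In spleen 8 of the 60 could be counted. The lowest ratio belonged to Cenpw, a centromere gene, with 50.9 CPM (113 UMIs) and 27.2 CPM (243 UMIs) and a ratio of -0.90 (-1.23 to -0.57). The highest belonged to Pttg1 (securin), the inhibitor of chromosome separation, with 52.2 CPM (116 UMIs) and 115 CPM (1022 UMIs) and a ratio of 1.13 (0.85 to 1.42). Of the 8 it alone was at least 2-fold apart, beside 5.07% of all genes at least 2-fold higher. At 20 UMIs, 38 were counted, 4 at least 2-fold higher and 2 lower, beside 9.18% and 2.83% of all genes. In tumor T cells 19 were counted and 0 were at least 2-fold apart, beside 4.18% of all genes higher and 1.8% lower. At 20 UMIs, 57 were counted, 1 at least 2-fold higher and 3 lower, beside 9.62% and 4.28% of all genes. Of the 19, Ncapd2, a condensin subunit, was lowest, with 23.7 CPM (91 UMIs) and 20.5 CPM (108 UMIs) and a ratio of -0.21 (-0.63 to 0.21). Cdkn3 was the highest of the 19, with 32.1 CPM (123 UMIs) and 56.8 CPM (299 UMIs) and a ratio of 0.82 (0.52 to 1.14), the reverse of its place in thymus. In melanoma cells 11 were counted, and Foxm1, a transcription factor of mitosis genes, was lowest, with 17.6 CPM (93 UMIs) and 8.31 CPM (19 UMIs) and a ratio of -1.08 (-1.88 to -0.36). Of the 11 it alone was at least 2-fold apart, beside 2.81% of all genes lower and 2.19% higher. Tacc3, a spindle protein, was the highest of the 11, with 17.4 CPM (92 UMIs) and 24.9 CPM (57 UMIs) and a ratio of 0.52 (0.02 to 1.01). At 20 UMIs, 57 were counted, 9 at least 2-fold lower and 1 higher, beside 8.63% and 3.59% of all genes.

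For comparison with the preceding stage of the cycle, 32 genes of S phase, when DNA is copied, were summed. They took 0.442% and 0.313% of UMIs in thymus, a log2 ratio of -0.50 (-0.52 to -0.48), nearer to 0 than the members. In spleen the ratio was 0.32 (0.25 to 0.40) and in tumor T cells 0.07 (0.03 to 0.12). Melanoma cells stood apart, with 0.135% and 0.0850% and a ratio of -0.66 (-0.74 to -0.59), where the summed mitosis members hardly differed. All 23 counted S phase genes were lower there, 6 of them at least 2-fold, beside 2.81% of all genes. So S phase and mitosis genes did not keep a fixed proportion between labels in melanoma cells, which rest on 142 and 58 cells. Markers of other cell types also moved between these cells. Fibroblast markers summed to 291 and 3.50 CPM, with 5 of 5 detected and Col1a2 in the lead (119 CPM) in the first library, and 3 of 5 detected, Col1a1 and Dcn at 0 and Lum in the lead (1.75 CPM) in the second. The 9 macrophage markers, all detected, summed to 26.9 and 172 CPM, led by Lyz2 (6.81 CPM) and C1qb (61.2 CPM). The 7 effector T cell markers, all detected, summed to 151 and 487 CPM, led by Ccl5 with 82.9 and 294. Their part in the melanoma values was not tested.

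Counting cells gave a view that does not depend on a few rich cells. Each cell was thinned, that is, 1000 of its UMIs were drawn, so that depth was equal, and cells with at least 2 core member UMIs were counted. In thymus 57.8% and 29.4% of cells reached that number, a difference of -28.4 points (-31.8 to -24.9). In spleen 5.35% and 6.35% did, a difference of 1.01 points (-0.416 to 2.26). Tumor T cells gave 35.5% and 44.1%, a difference of 8.60 points (1.38 to 15.6), and melanoma cells 24.6% and 24.1%. At this setting thymus and tumor T cells differed in opposite directions between labels, and spleen not beyond counting error. Both of the latter depended on the setting. With at least 1 core UMI the spleen difference was 4.42 points (1.83 to 6.91), clear of 0, and with 500 UMIs per cell that of tumor T cells was 3.13 (-2.81 to 8.71), which holds 0. The mean over all possible draws, which needs no drawing, was 57.5% and 29.3% in thymus, 5.17% and 6.30% in spleen, 36.9% and 45.9% in tumor T cells and 22.6% and 20.9% in melanoma cells. Without thinning, at the unequal depths given above, the shares were 86.7% and 81.1% in thymus and 9.81% and 14.9% in spleen. Tumor T cells, with medians of 11027 and 9107 UMIs, then gave 86.1% and 92.5%, and melanoma cells, with 31889 and 35962, gave 94.4% and 93.1%.

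Free RNA in droplets can set a floor under such shares. The nearest to a resting class in the tumor libraries was a T cell cluster with Ccr7, Lef1 and S1pr1, markers of naive-like cells, where 1 of 33 cells labelled Pdcd1fl/fl, 3.03% (0.0767 to 15.8), passed at the same thinned depth (median 7195 UMIs before thinning). In thymus the lowest share among clusters of at least 20 cells differed by label. It was 20% (7.71 to 38.6) under Pdcd1fl/fl, in cluster 3 with S1pr1, Klf2 and Cd8b1 (6 of 30 cells, median 4212 UMIs). Under Pdcd1 cKO it was 4.82% (1.33 to 11.9), in cluster 7 with natural killer markers (83 cells, median 4781). The clusters with those CD8 markers that held both libraries gave 20% and 13.2% in cluster 3, 22.5% and 8.61% in cluster 4 and 21.4% and 9.09% in cluster 6. The shares thus stood higher under Pdcd1fl/fl, with overlapping intervals in clusters 3 and 6, and the part of free RNA in the thymus difference was not tested. Spleen shares as a whole were low, but no background was measured in the spleen libraries themselves, so the part of free RNA in them was not tested. A small spleen cluster with Prtn3 and Mpo RNA had 15 of 44 cells labelled Pdcd1 cKO, 34.1% (20.5 to 49.9), while the other spleen clusters under that label ran from 3.61% to 7.47%.

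The thymus libraries differed in their cells. Clusters with more Dntt, the enzyme active during receptor gene rearrangement, than Cd8b1 held 79.8% and 50.6% of cells, and clusters with more Cd8b1 held 20.2% and 49.4%. The 7 markers of immature thymocytes, all detected, summed to 1031 and 927 CPM, led by Dntt with 478 and 377. Most cells labelled Pdcd1fl/fl thus lay in Dntt clusters, although the summed immature markers differed little. Other markers also moved. Ccr7, a homing receptor of mature cells, had 149.8 and 294 CPM and Cd8b1 186 and 291 CPM. The 7 effector markers, all detected, summed to 1218 and 1551 CPM. Gzma led in the first library (561 CPM) and Ccl5 in the second (805 CPM). Within the Dntt clusters the effector sum went the other way, at 983 and 684 CPM, led by Gzma with 637 and 315. Within the Cd8b1 clusters it was 2737 and 3011 CPM. The part of these markers in the member ratio was not tested. Markers of other cell types were scarce but differed more. Those of fibroblasts (4 of 5 detected, Lum at 0) summed to 64.0 and 20.4 CPM, led by Dcn with 47.3 and 15.6. The 6 erythroid markers summed to 2.66 and 21.9 CPM, led by Car2 with 2.35 and 11.6, with Hba-a1, Hba-a2 and Alas2 at 0 in the first library. The 3 natural killer markers summed to 5.95 and 12.8 CPM, led by Klre1 with 3.29 and 8.93, with Ncr1 at 0 in the first, and the part of all 3 lists was not tested. The Dntt clusters were not all alike in markers, and cluster 7 had natural killer markers. Cluster 0, with 538 of the 851 cells labelled Pdcd1fl/fl, had no immature marker at least 2-fold above other thymus cells. Nor had cluster 8, with 380 of the 1332 cells labelled Pdcd1 cKO. Those other cells included clusters with immature markers, so this rule cannot tell whether clusters 0 and 8 were immature. The Dntt clusters held 94.8% and 85.1% of the member UMIs of their libraries. Member shares were 1.14% and 0.843% within the Dntt clusters and 0.406% and 0.249% within the Cd8b1 clusters. The log2 ratio was -0.44 in the former and -0.71 in the latter. Each kind of cluster thus kept the sign of the whole thymus with a ratio nearer to 0, and the part of cell composition was not tested. Precursors, in which the Cre transgene does not act, are among the cells of the Dntt clusters. The part of the Pdcd1 deletion in either ratio was not tested.

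By gene, 2 of 45 members were at least 2-fold lower within the Dntt clusters, beside 2.2% of 9447 genes, namely Plk1 and Spc25. Their ratios were -1.15 (-1.45 to -0.85) and -1.04 (-1.25 to -0.82). The median there was -0.41, beside -0.03 for all genes, and Kif11, Kif4, Smc4 and Ttk lay above 0. Within the Cd8b1 clusters, 27 members had enough UMIs (18 had fewer) and 9 were at least 2-fold lower, beside 3.14% of 6762 genes, with a median of -0.71 beside -0.18. The lowest there was Stmn1, at -1.92 (-2.08 to -1.77). Mki67 had 157 and 134 CPM in the Dntt clusters and 43.2 and 23.6 CPM in the Cd8b1 clusters.

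Single thymus clusters went both ways. Cells labelled Pdcd1fl/fl lay mostly in clusters 0 (538 and 4 cells) and 1 (148 and 3), and cells labelled Pdcd1 cKO mostly in clusters 4 (120 and 592), 5 (26 and 480), 3 (30 and 400), 2 (117 and 382) and 8 (11 and 380). Of 11 clusters, 6 drew most of their cells (under 10% from the other) from 1 library. At least 20 cells of each library were present in 5 clusters (2 to 6), and of these clusters 3 and 5 were among the 6 drawn mostly from 1. Among those 5, member ratios were above 0 in clusters 2, 3 and 5, at 0.19 (0.14 to 0.25), 0.23 (0.08 to 0.38) and 0.16 (0.04 to 0.29). Clusters 4 and 6 were below 0, at -1.18 and -0.77. Core members gave 0.26 (0.18 to 0.35) in cluster 2, but the intervals of clusters 3 and 5 held 0, at -0.02 (-0.30 to 0.28) and 0.17 (-0.07 to 0.42). In clusters 4 and 6 core members gave -1.37 and -1.02. Cells with at least 2 core UMIs made up 30.8% and 20.8% of cluster 5, with overlapping intervals. S1pr1, Klf2 and Cd8b1 marked clusters 3, 4 and 6 alike, so these markers did not go with the sign of the member ratio. Cluster 0 was rich in member RNA at 1.25%. Cluster 8, led by histone genes, had 1.15% and the deepest cells (median 13499 UMIs). Cluster 2, drawn from both libraries, held 0.604% and 0.691%, and 59.8% and 65.2% of its cells had at least 2 core UMIs after thinning. The pair of clusters with the highest member share, 0 and 8, thus came almost wholly from 1 library each, and what separates them was not tested.

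**Figure D3:**
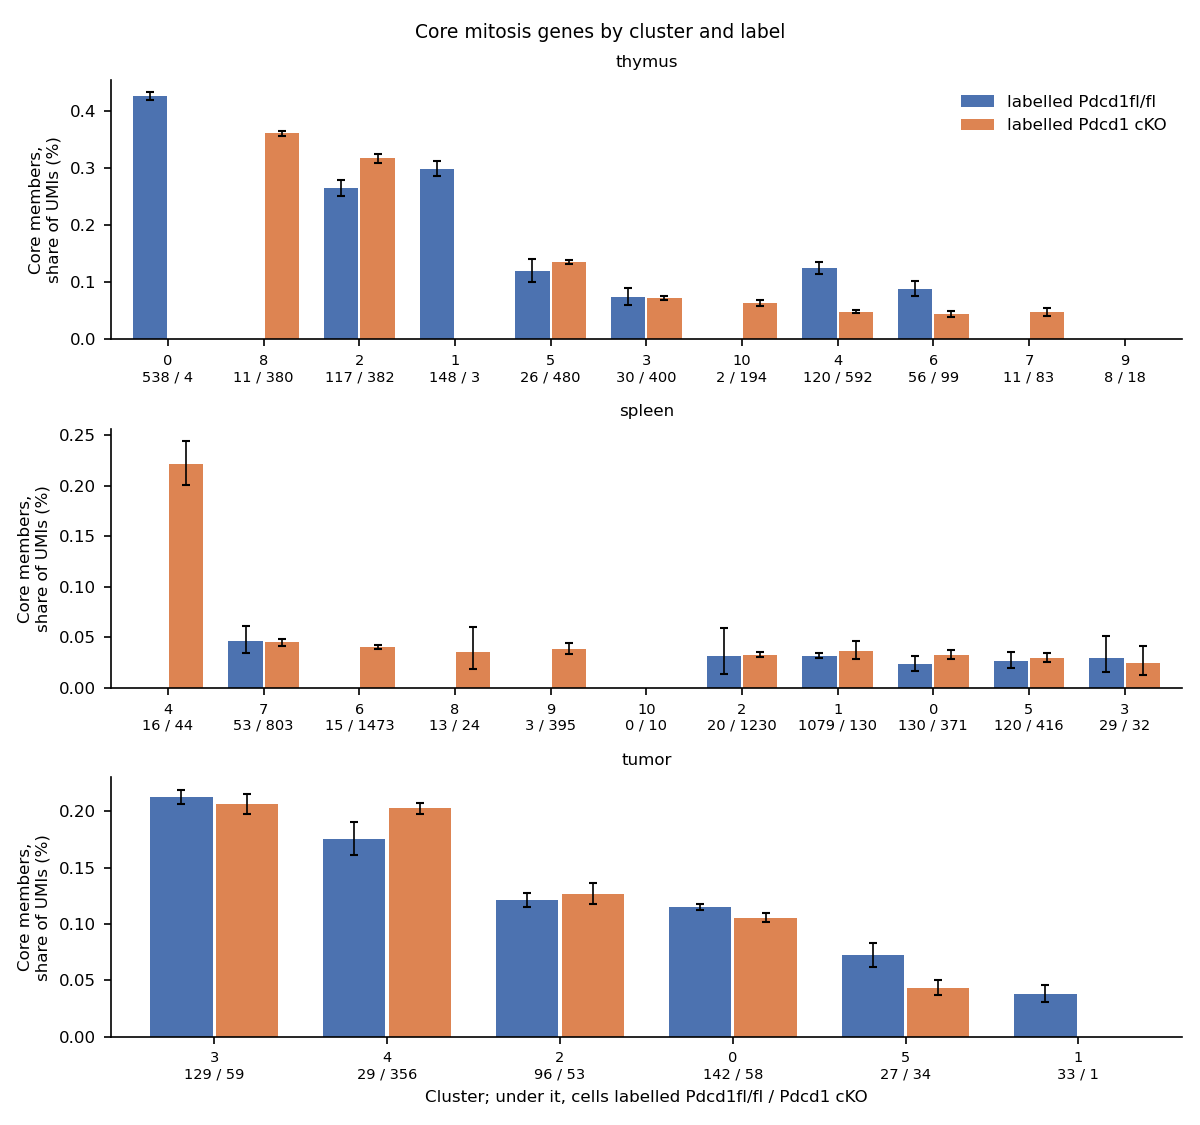
Share of UMIs taken by the 36 core members (vertical axis, percent) in each cluster of thymus, spleen and tumor cells, with exact Poisson 95% intervals; bars are drawn for libraries with at least 20 cells in a cluster, and cell numbers stand under each cluster. In thymus, clusters 0 and 8 stand highest and are each filled mostly from 1 library, whereas cluster 2, with the next bar in height under Pdcd1 cKO, is filled from both, and in spleen the single bar of cluster 4 stands above all others.

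In spleen a small cluster held much of the mitosis RNA. Cluster 4, led by Prtn3 and Mpo, genes of granulocyte precursors, had 16 and 44 cells, 1.08% and 0.893% of the filtered cells. Members took 0.835% and 0.672% of its UMIs, against 0.128% and 0.159% in the other spleen clusters, and it held 15.3% and 8.25% of member UMIs and 19.3% and 11.1% of core UMIs. Mki67 had 167 and 123 CPM in it (10 and 23 UMIs) and 0.925 and 4.58 CPM in the rest. Its few cells thus stood at thymus-like levels. Of 5 granulocyte precursor markers, 2 were detected in its cells labelled Pdcd1fl/fl, with 5 UMIs in all and Mpo, Elane and Ctsg at 0. In its cells labelled Pdcd1 cKO all 5 were detected, with 527 UMIs, 2828 CPM, led by Mpo with 1057. The 11 T cell markers summed to 5008 and 2957 CPM in the same cells. The cluster therefore joined cells of unlike marker content, and its part in the spleen values was measured by leaving it out, which gave a ratio of 0.32 in place of 0.21.

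Outside that cluster, a few members stood above the rest. Spleen cells labelled Pdcd1fl/fl lay mostly in cluster 1 (1079 and 130 cells), and those labelled Pdcd1 cKO in clusters 6 (15 and 1473), 2 (20 and 1230) and 7 (53 and 803). Cks2 had 135 and 148 CPM there, Racgap1 58.8 and 75.9 CPM, and Smc4 171 and 162 CPM. Birc5, by contrast, had 4.16 and 6.41 CPM, and Ube2c 4.16 and 4.12 CPM. Levels of Cks2, Racgap1 and Smc4 in spleen cells outside cluster 4 thus did not follow those of other members. Among 6 spleen clusters with at least 20 cells of each library, the member ratio was above 0 in 5. Markers of other cells also differed between the spleen libraries. Igkc, which encodes an antibody light chain, had 82.4 and 1517 CPM. The 4 plasma cell markers summed to 38.3 and 143 CPM, led by Xbp1 in the first library (32.4 CPM, with Sdc1 at 0) and Jchain in the second (109 CPM). The 5 granulocyte precursor markers summed to 2.25 and 77.4 CPM, with Mpo, Elane and Ctsg at 0 in the first library and Mpo in the lead (27.6 CPM) in the second. The 6 erythroid markers summed to 11.3 and 46.1 CPM, led by Car2 (9.91 and 16.4 CPM), with Hba-a1 and Hbb-bt at 0 in the first library. All were thus higher under the label Pdcd1 cKO. Without cells holding at least 2 UMIs of these markers or Igkc, an alternative chosen after seeing the data, 1445 and 3524 cells were left and the member ratio was 0.16 (0.10 to 0.22). The planned form of this exclusion used another list in place of the plasma cell markers and Igkc. It left 1413 and 3127 cells and gave 0.25 (0.18 to 0.31). The 7 effector markers, all detected, summed to 6185 and 11172 CPM, led by Ccl5 with 3919 and 7985. The part of the effector markers in the member ratio was not tested.

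The tumor T cells came from different clusters in the 2 libraries. Cells labelled Pdcd1 cKO lay mostly in cluster 4 (29 and 356 cells), which carried Gzma, Gzmk and Ccl5, genes of effector cells. Cells labelled Pdcd1fl/fl lay mostly in cluster 3 (129 and 59), led by Gzmb among the effector markers, and in cluster 2 (96 and 53), with Ccr7 and Tcf7. The naive-like cluster 1 held 33 and 1 cells. Within cluster 2 the member shares were 0.452% and 0.480%, a ratio of 0.09 (0.02 to 0.15). Within cluster 3 they were 0.709% and 0.673%, a ratio of -0.08 (-0.12 to -0.03). Within cluster 4 they were 0.664% and 0.700%, a ratio of 0.08 (0.01 to 0.14). Each within-cluster ratio was closer to 0 than the pooled 0.19, and clusters 2 and 3 together gave -0.03. The shares of cells with at least 2 core UMIs were near in cluster 2, 22.9% and 24.5%, and in cluster 3, 52.7% and 52.5%. In cluster 4 they lay further apart, at 37.9% (20.7 to 57.7) and 45.8% (40.5 to 51.1), with overlapping intervals. Core members of cluster 4 gave a ratio of 0.21 (0.08 to 0.34), not closer to 0 than the 0.19 of core members in all tumor T cells. A difference in cell composition and a difference within cells cannot be told apart with 1 library per label. The 9 melanoma markers, all detected, summed to 298 and 204 CPM in T cells, led by Dct in the first library (92.8 CPM) and Pmel in the second (53.6 CPM), and their part was not tested. Other markers moved further in these cells. The 7 effector markers, all detected, summed to 3374 and 7044 CPM, led by Nkg7 with 1561 and 2637. Ccr7 had 346 and 63.7 CPM, the opposite order. The 9 macrophage markers summed to 25.3 and 50.4 CPM, led by Lyz2 (7.56 and 17.7 CPM), with Csf1r at 0 in the first library, and Igkc had 19.6 and 57.4 CPM. The part of these markers in the T cell ratio was not tested either.

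Genes outside the members, the other mitosis genes and the S phase genes that followed the core members most closely were sought over 42 clusters of single libraries, each of at least 20 cells. Among 8210 genes with at least 500 UMIs, the Pearson correlation of log2(CPM + 1) with the summed core share had a median of 0.162. The highest belonged to Tk1, a kinase that supplies thymidine for DNA, at 0.895. Next came Hmgn2 (0.881), a nucleosome-binding protein, Rad51ap1 (0.880) of DNA repair, Pclaf (0.880), which binds the replication clamp, and Esco2 (0.876), which ties sister chromatids. Banf1 (0.875), which gathers the nuclear envelope, Lrr1 (0.866), Ran (0.864), a regulator of spindle assembly and nuclear transport, 2610318N02Rik (0.861) and the histone gene H2ac8 (0.856) completed the 10. Of the members, Tubb5 reached 0.893, Hmgb2 0.860 and Stmn1 0.849, whereas Smc4 had 0.0977, Cks2 0.0620 and Racgap1 0.124. The clusters share libraries and depths, so these values are descriptions of the 6 libraries only.

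Many G2 and mitosis genes are known to be read through a CCAAT box, bound by the factor NF-Y, and a cell cycle homology region (CHR), bound by the MuvB complex. Promoter sequences from RefSeq (GRCm38.p6) were available for 38 of the 45 members, and the 250 bases before the start were searched on both strands. The other 7 had no match by symbol. CCAAT was present for 31 of 38 members (81.6%), compared with 37.5% of 27025 genes. TTTGAA, a common form of the CHR, was present for 13 of 38 (34.2%), compared with 18.3% of all genes. A match describes the sequence and not binding. Ccnb1, Cdk1, Mki67 and Top2a are shown because they span a range of thymus ratios, from Ccnb1 (-1.30) through Cdk1 (-0.71) and Mki67 (-0.60) to Top2a (-0.49), read 5' to 3' toward the start, with matches to either motif on either strand in capitals. Ccnb1 has CCAAT boxes but no TTTGAA match in this stretch, and the other promoters shown hold both motifs. Other forms of the CHR were not searched.
Ccnb1, chr13:100786487-100786736, minus strand: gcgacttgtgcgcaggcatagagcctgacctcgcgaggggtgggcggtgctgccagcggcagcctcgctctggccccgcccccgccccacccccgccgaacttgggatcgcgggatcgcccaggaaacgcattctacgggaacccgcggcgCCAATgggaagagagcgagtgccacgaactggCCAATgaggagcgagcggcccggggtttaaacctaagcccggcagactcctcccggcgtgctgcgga
Cdk1, chr10:69352913-69353162, minus strand: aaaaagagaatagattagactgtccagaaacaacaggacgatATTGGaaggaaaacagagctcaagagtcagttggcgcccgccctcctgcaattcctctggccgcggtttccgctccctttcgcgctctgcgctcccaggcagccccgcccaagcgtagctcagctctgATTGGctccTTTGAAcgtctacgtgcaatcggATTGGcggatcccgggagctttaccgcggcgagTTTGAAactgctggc
Mki67, chr7:135716380-135716629, minus strand: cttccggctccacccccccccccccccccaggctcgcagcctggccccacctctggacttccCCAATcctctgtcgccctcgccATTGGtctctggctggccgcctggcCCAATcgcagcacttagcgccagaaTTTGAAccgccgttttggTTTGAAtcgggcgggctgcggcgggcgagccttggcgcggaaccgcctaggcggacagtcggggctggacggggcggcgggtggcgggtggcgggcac
Top2a, chr11:99024190-99024439, minus strand: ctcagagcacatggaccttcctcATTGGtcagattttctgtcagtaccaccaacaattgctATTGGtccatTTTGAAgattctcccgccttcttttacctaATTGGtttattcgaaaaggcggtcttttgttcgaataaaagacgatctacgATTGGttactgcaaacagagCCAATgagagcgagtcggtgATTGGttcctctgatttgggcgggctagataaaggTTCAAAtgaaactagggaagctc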

How the data were processed

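The count tables were used as deposited: the authors made them with the PIPseq pipeline v3.2 on GRCm39 and processed cells with Seurat 4.3.0, per the submitters' notes, and the annotation release is not given in the sources used here. Each table holds raw UMI counts per gene and cell barcode. Barcodes under 500 genes or 1000 UMIs, or with mitochondrial counts above 20%, were dropped. Counts of each gene were added up within a library or cell class and divided by the total of the same cells. Each pair of libraries was compared by ratio with exact intervals, and no test was made because each group has 1 library. Cells were clustered by tissue with Leiden at resolution 0.6 (2000 variable genes, 20 principal components, 15 neighbours), with 242 genes (members, other mitosis, S phase and histone genes) left out of the clustering.

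Genes given by library were named by rule: in each role the 1 with the most UMIs, the highest and lowest ratio in each population, and Mki67, Top2a, Cdk1 and Ccnb1. Others are said to be chosen after their values were seen. The members and lists were chosen with earlier results of these data known. Alternatives varied the cell filter, the total, the depth, the members summed, the cells, the fold and the minimum of UMIs, and those on sets of clusters, on spleen cells without plasma cell, granulocyte precursor or erythroid markers or Igkc, on core members without Cks2 and Racgap1 and on further draws were chosen after seeing the data. Thinning was redone with 1 draw per library after an initial draw for each population had been seen. Both draws and the mean over all draws were kept: the initial draw gave differences of -28.6 points in thymus, 0.763 in spleen, 12.7 in tumor T cells and -4.27 in melanoma cells. The summing and the intervals were tested on simulated data. Python 3.11.15, numpy 2.4.6, scipy 1.17.1, pandas 2.3.3, scanpy 1.11.5 and igraph 0.11.9 were used.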

Additional observations from a re-analysis of the deposited data

Results flagged for a closer look

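The summed member ratio differed in direction between tissues. In thymus the log2 ratio was -0.75, and in spleen it was 0.21. The spleen sign turned with a stricter cell filter, to -0.45. The tumor T cell ratio was -0.0330 (-0.0681 to 0.0020) in clusters filled from both libraries, which held 225 and 112 cells. That interval holds 0. In tumor T cells the ratio was 0.19, again opposite to the -0.75 of thymus. Each tissue has its own pair of libraries, and the difference between these ratios was not tested.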

How the results depend on the processing

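Of the alternatives below, all kept the sign of the summed member ratio in thymus, and in spleen and tumor T cells 1 each reversed it. The interval of the reversed ratio in tumor T cells holds 0. Single clusters did not keep the sign: thymus clusters 2, 3 and 5 gave 0.19, 0.23 and 0.16, spleen cluster 2 -0.0333 and tumor T cell cluster 3 -0.0758. For tumor T cells the absence of a filter, the stricter filter and doubled cluster resolution left the same 287 and 469 cells, so they tested nothing there.

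Without any cell filter the spleen ratio was 0.36. With a stricter filter (at least 1000 genes, 2000 UMIs, at most 10% mitochondrial counts) it reversed to -0.45, on 81 and 865 cells, and thymus gave -0.77. The cause was not tested. With a total that leaves out mitochondrial, ribosomal protein and Malat1 counts, the ratio was -0.56 in thymus, 0.0731 in spleen, 0.0577 in tumor T cells and -0.0693 in melanoma cells. Thinning each cell to 1000 UMIs gave -0.96 in thymus, 0.31 in spleen and 0.33 in tumor T cells.

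Core members alone gave -0.85 in thymus, 0.0925 in spleen and -0.12 in melanoma cells. Without Cks2 and Racgap1 as well, they gave -0.88, 0.0201 and -0.10. Leaving out the member with the most UMIs gave -0.79 in thymus and 0.27 in spleen.

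Cells with a Cd8a or Cd8b1 UMI gave 0.16 in spleen. Thymus cells without a Dntt or Rag1 UMI gave -1.05, clusters with more Cd8b1 than Dntt -0.71 and clusters with more Dntt -0.44. Leaving out the Prtn3 and Mpo cluster of spleen gave 0.32, and leaving out the naive-like T cells of the tumor gave 0.11. In clusters with at least 10% of cells from each library, the ratio was -0.48 in thymus and 0.45 in spleen. In tumor T cells it reversed to -0.0330 (-0.0681 to 0.0020), an interval that holds 0. The cause was not tested.

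At 1.5-fold, 30 members were apart in thymus (26.6% of all genes), 7 in spleen (21.1%), 2 in tumor T cells (16.1%) and 2 in melanoma cells (17.2%). With a minimum of 20 UMIs, 12 members were at least 2-fold apart in spleen (6 higher and 6 lower, against 1 and 0 at 100 UMIs; 12.0% of all genes), 2 in tumor T cells (13.9%) and 1 in melanoma cells (12.2%).

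The share of cells with at least 2 core UMIs differed by -5.59 points in thymus and 5.10 in spleen without thinning, and requiring at least 1 core UMI gave -18.9 and 4.42 (1.83 to 6.91). Thinned to 500 UMIs, thymus gave -20.1, with -19.4 in the initial draw and -21.2 as the mean over all draws. Tumor T cells gave 3.13 (-2.81 to 8.71) in the main draw and 5.85 as the mean over all draws, and the initial draw reversed to -0.0104, so that at 500 UMIs 1 draw of 2 turned the sign.

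No paired analysis was possible because the 2 labels come from different mice and the files match none of them. Between labels, low member counts left out the most members in spleen, where 28 of 45 had fewer than 100 UMIs. Genotype, mouse, library and cell composition cannot be told apart in any comparison, and ratios of genes with few UMIs have wide intervals.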
